A study of Mus musculus with 12 samples.

Results

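Activated splenic CD4+ T cells labelled as lacking Ikaros were compared with activated cells that kept it. The comparison rests on 6 of the 12 arrays of the series, those titled Cre+ 24h and Cre- 24h, chosen by their titles alone. The Cre+ group had the genotype Lck-Cre+;Ikzf-/- and the Cre- group Lck-Cre-;Ikzf+/+, each with 3 arrays. All 6 came from spleen CD4+ T cells kept for 24 hours on anti-CD3 bound to the plate, with anti-CD28 in solution. The other 6 arrays held the same genotypes at baseline (0 hours), 3 of each, and are used here for the estimate of spread and for values set side by side. The sources used here do not give the age or strain of the mice. The Cre was driven by the promoter of Lck, a kinase gene of the T lineage, so both deletion and any effect of Cre itself apply to T lineage cells. Since no Cre+ group kept Ikaros, an effect of Cre and one of the deletion cannot be told apart. Total RNA was read on whole-transcript arrays, and 23185 of the 25206 probe sets, those paired with exactly 1 mouse gene, were tested.

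Ikaros is a zinc finger DNA-binding protein of lymphocytes, encoded by Ikzf1. It is best known for holding genes silent through the NuRD chromatin remodelling complex, and it also takes part in activating genes. It binds DNA around a short GGGAA core. Antibodies to CD3 and CD28 stand in for antigen and costimulation: they set off the T cell receptor pathway, and naive CD4 T cells then grow, start to divide and begin to make cytokines.

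Ikzf1 itself read 10.03, 10.22 and 10.08 on the log2 scale on Cre- activated arrays 1, 2 and 3, and 10.14, 9.93 and 9.89 on the Cre+ ones. The groups overlapped, and Cre+ differed from Cre- by -0.13 (limma SE 0.13, adjusted p = 0.993). Which exons were deleted is not stated in these sources, and the probe set gives a single value per gene, so this level does not check the genotype labels. T cell identity was plain on every array. The mean of 10 measured T cell markers lay between 9.98 and 10.43, Cd4 between 10.48 and 11.21 and Cd3e between 10.15 and 10.80. No source used here says whether the arrays of a group came from separate mice, so p-values measure the spread between these samples. Xist and the Y-linked genes showed 1 male and 2 female arrays in the Cre- group and 2 male and 1 female in the Cre+ group.

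The arrays numbered 3 differed from arrays 1 and 2 in many of the same genes in both genotypes, but only Cre- array 3 stood apart by correlation. Across genes, Cre- array 3 correlated at 0.972 and 0.976 with arrays 1 and 2 of its own group and at 0.989 with Cre+ array 3. Cre- arrays 1 and 2 correlated with each other at 0.994. Cre+ array 3 correlated at 0.990 with Cre+ array 1 and at 0.976 with Cre+ array 2. Cre+ array 2 correlated at 0.990 and 0.991 with Cre- arrays 1 and 2, against 0.988 with Cre+ array 1. In all, 311 genes (1.34%) read over 1 log2 unit higher on array 3 than on the mean of arrays 1 and 2 in both genotypes, and 186 (0.802%) read lower by as much. Those higher were led by Klk1, Il9 and the DNA replication and cell cycle genes Clspn, H2ac11, E2f8 and Ccna2. Ccna2, which encodes cyclin A2, read 5.32, 5.90 and 9.19 in Cre- and 6.49, 5.64 and 8.61 in Cre+ cells. Those lower were led by Ctse, Hspa1a, Tmem71 and Cxcr4 and by genes that keep resting T cells circulating, Klf2 and S1pr1. S1pr1, the receptor for exit from lymphoid organs, read 9.04, 8.67 and 5.80 in Cre- and 7.36, 8.54 and 5.92 in Cre+ cells. Cre+ array 1 lay between for both genes. None of these leading genes differed between genotypes past the test.

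**Figure D1:**
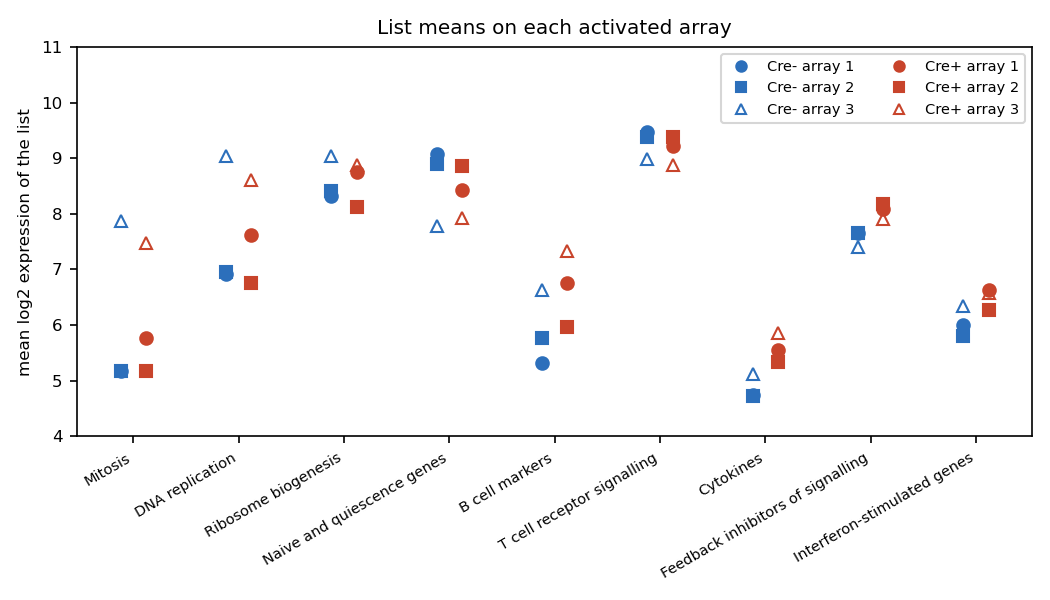
Mean log2 expression (vertical axis) of the measured members of 9 gene lists on each activated array, Cre- in blue and Cre+ in red, with the arrays numbered 3 as open triangles. Mitosis, DNA replication and naive genes separate the arrays numbered 3 in both genotypes, while the cytokine and feedback inhibitor means of every Cre+ array lie above those of every Cre- array.

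More genes were higher than lower in activated Cre+ cells when all arrays counted alike. Of 23185 genes, 169 passed a limma test at an adjusted p under 0.05 (0.729%), 146 higher (0.63%) and 23 lower (0.0992%) in activated Cre+ cells. At least 2-fold differences made up 95 of the calls (0.41%), 92 higher and 3 lower. The higher genes had a median log2 difference of 1.15, and 18 of them were at least 4-fold and 4 at least 8-fold higher: Ifitm3, Stra6, Il3 and Ctnnd1. The lower genes had a median of -0.75, and Dapl1 alone was at least 4-fold lower. The median of all genes was -0.01. With a weight per array the split was instead 1204 higher and 1212 lower (49.8% higher, against 86.4%). The Cre- level of the higher genes lay below the array median in 27 of 146 (18.5%), against 49.6% of all genes. That median (4.07) is not a detection level. Csf2 (4.07), Ctnnd1 (4.16) and Il3 (4.44) had Cre- means at it or little above. Of the 146, 141 were protein coding. In bulk samples a change in RNA per cell and a change in the number of cells that carry it cannot be told apart.

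The strength of these calls rested on the spread that was assumed. The median SD over genes was 0.176 and 0.172 in the activated Cre- and Cre+ groups, against 0.134 and 0.128 at baseline, and the test shared a single estimate over all 12 arrays. With weights that let each state have its own spread, 99 genes passed, 90 higher and 9 lower, all of them among the 169. A fit restricted to the 6 activated arrays called 9 genes (0.0388%), each of them higher. Without both arrays numbered 3 there were 229 calls, 188 higher and 41 lower, of which 121 were among the 169. Leaving out single arrays gave 93, 82 and 283 calls without Cre- activated array 1, 2 or 3, and 72, 218 and 120 without Cre+ activated array 1, 2 or 3. Without both arrays numbered 1, an alternative added after seeing the data, 28 remained, all among the 169. All 169 genes had Cre+ and Cre- arrays that did not overlap, as did 1217 genes above (5.25%) and 1278 below (5.51%) of all those tested. With such groups, leaving out or weighting arrays cannot turn a direction. That all 169 genes kept theirs in each of these fits is therefore no check.

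**Figure D2:**
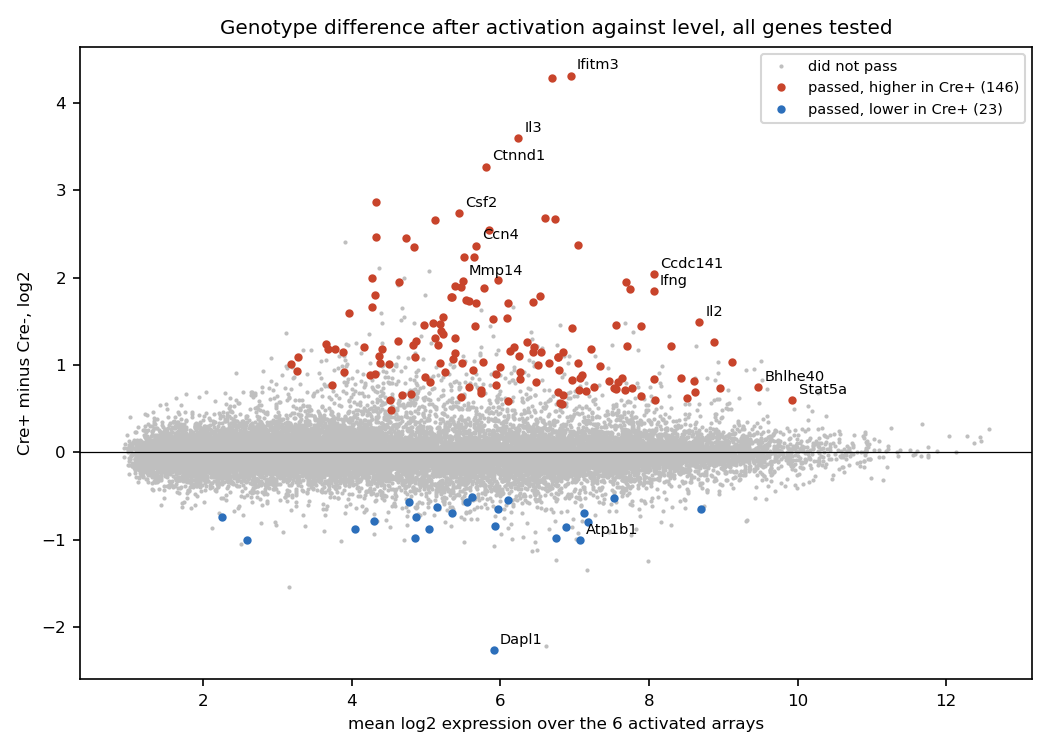
Log2 difference of Cre+ from Cre- after activation (vertical axis) against the mean log2 level over the 6 activated arrays (horizontal axis) for 23185 genes, with the 146 that passed higher in red and the 23 that passed lower in blue. The large differences point upward and come from genes of middle level, and Dapl1 lies alone among the decreases.

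Across the 28 alternative settings tried, 9 genes passed in each setting that tested them: Il3, Ctnnd1, 1700042O10Rik, Ccn4, Lgals7, Mmp14, Maged1, Trim16 and Pdzk1ip1. These are the same 9 that passed with the 6 activated arrays by themselves. The filters on mean level left some of them out and so did not test them. Il3 encodes a growth factor for blood cell precursors that activated T cells secrete. It read 4.15, 4.24 and 4.92 on Cre- arrays 1, 2 and 3 and 8.02, 7.58 and 8.50 on the Cre+ arrays. The lowest Cre+ array thus lay far above the highest Cre- array, and array 3 was the highest of each group. The difference was 3.60 (SE 0.25, limma adjusted p = 6.24e-05).

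Ctnnd1 encodes p120 catenin, which holds cadherins at the cell surface. Its readings were 4.08, 4.05 and 4.37 in Cre- cells and 7.56, 7.16 and 7.58 in Cre+ cells, 9.63-fold apart with no overlap. Mmp14, the membrane-bound matrix metalloprotease MT1-MMP, had tightly grouped controls, with 4.53, 4.51 and 4.50 in Cre- against 6.60, 6.26 and 6.56 in Cre+ cells (3.88-fold). Ccn4, a secreted matricellular protein of the CCN family, read 4.29, 4.59 and 4.60 against 7.01, 6.76 and 6.81 (5.15-fold). Array 3 did not stand away from both other arrays of its group for Mmp14 or Ccn4. For Ctnnd1 it lay somewhat above the other Cre- arrays (4.37 against 4.08 and 4.05).

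Lgals7 encodes galectin-7, a sugar-binding protein of epithelia, and was 4.71-fold higher, at 4.63, 4.05 and 4.48 against 6.88, 6.48 and 6.50. Maged1, a MAGE family adaptor gene, was 3.69-fold higher. Trim16, a tripartite motif gene, was 3.17-fold higher and Pdzk1ip1, which encodes the small membrane protein MAP17, 2.35-fold higher. 1700042O10Rik, a gene with no functional name, went from a Cre- mean of 2.90 to a Cre+ mean of 5.76. Its Cre- level and that of Trim16 (3.44) lay below the array median of 4.07, so a fold there compares readings that may sit near background.

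Of the settings that tested them, a further 16 genes lost their call only in the fit of the 6 activated arrays. They were Ifitm3, Tmem176b, Axl, Ier3, Rhbdf1, Tnfsf11, Ifng, Prnp, Dapl1, Firre, Vcl, Parp12, Chst11, Arhgef5, Pon3 and Hectd2, all higher except Dapl1. At the other end, 65 of the 169 calls were lost in 10 or more settings.

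**Figure D3:**
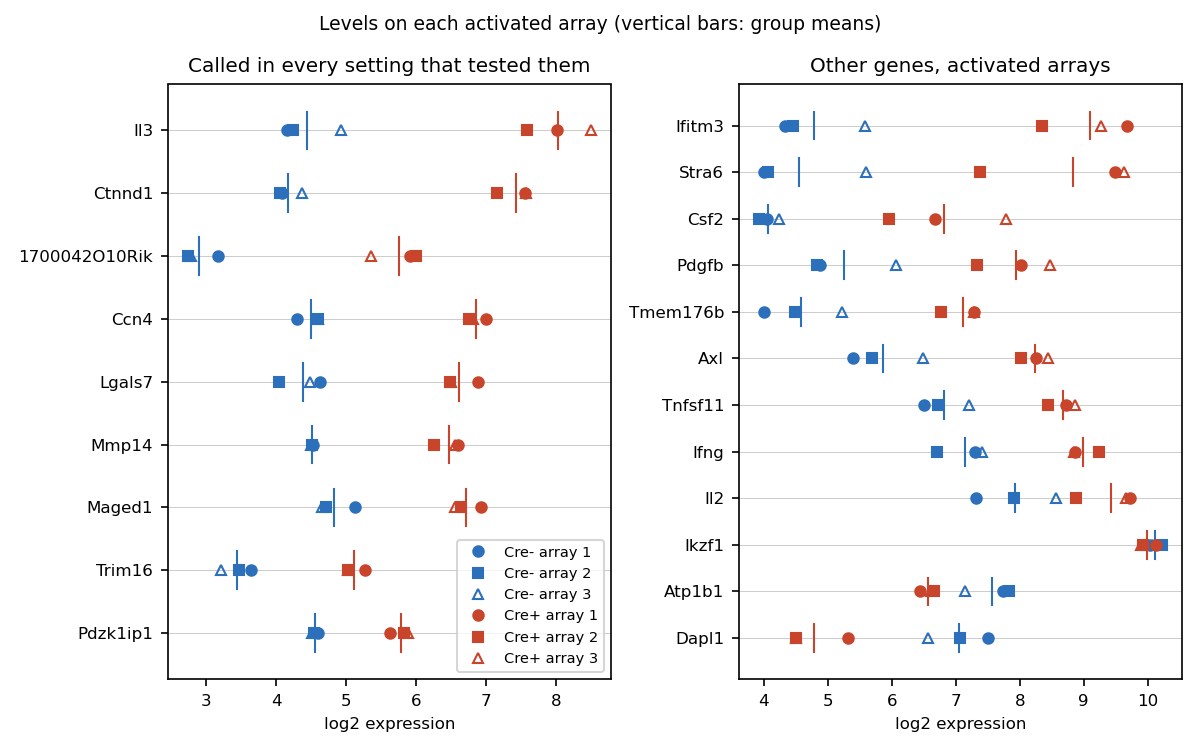
Log2 expression (horizontal axis) on each activated array for the 9 genes that passed in every setting that tested them (left) and for 12 others (right), Cre- in blue and Cre+ in red, arrays numbered 3 as open triangles, vertical bars for group means. The groups are clearly apart for Il3, Ctnnd1 and Mmp14, with array 3 the highest Cre- array for Ifitm3, Stra6 and Pdgfb, and they overlap for Ikzf1.

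The promoters of 5 of the most changed genes are shown to let the GGGAA core be seen in place. Each is 250 bases before the start in RefSeq's table for GRCm38.p6, 5′ to 3′ on the strand of the gene, with GGGAA and its reverse complement TTCCC in capitals. The sequences belong to Il3 (chr11:54267280-54267529, minus strand), Mmp14 (chr14:54431348-54431597, plus), Ctnnd1 (chr2:84658978-84659227, minus), Ifitm3 (chr7:141010745-141010994, minus) and Dapl1 (chr2:59484403-59484652, plus).
Il3: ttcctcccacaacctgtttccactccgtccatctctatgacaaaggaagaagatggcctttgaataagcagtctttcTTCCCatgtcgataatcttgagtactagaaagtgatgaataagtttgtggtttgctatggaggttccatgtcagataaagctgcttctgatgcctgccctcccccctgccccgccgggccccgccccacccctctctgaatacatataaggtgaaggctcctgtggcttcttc
Mmp14: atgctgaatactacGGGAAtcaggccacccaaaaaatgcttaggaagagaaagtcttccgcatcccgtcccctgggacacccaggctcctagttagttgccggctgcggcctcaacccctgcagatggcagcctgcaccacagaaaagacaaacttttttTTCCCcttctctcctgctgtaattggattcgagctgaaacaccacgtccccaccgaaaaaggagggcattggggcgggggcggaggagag
Ctnnd1: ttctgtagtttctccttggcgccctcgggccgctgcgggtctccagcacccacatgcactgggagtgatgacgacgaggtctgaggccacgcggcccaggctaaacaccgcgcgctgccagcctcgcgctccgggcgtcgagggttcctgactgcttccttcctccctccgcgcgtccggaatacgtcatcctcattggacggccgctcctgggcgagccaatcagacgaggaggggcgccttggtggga
Ifitm3: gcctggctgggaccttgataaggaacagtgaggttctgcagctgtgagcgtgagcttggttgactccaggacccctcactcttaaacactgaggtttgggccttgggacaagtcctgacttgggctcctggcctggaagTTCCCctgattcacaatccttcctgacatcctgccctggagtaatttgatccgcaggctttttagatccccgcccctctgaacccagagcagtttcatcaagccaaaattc
Dapl1: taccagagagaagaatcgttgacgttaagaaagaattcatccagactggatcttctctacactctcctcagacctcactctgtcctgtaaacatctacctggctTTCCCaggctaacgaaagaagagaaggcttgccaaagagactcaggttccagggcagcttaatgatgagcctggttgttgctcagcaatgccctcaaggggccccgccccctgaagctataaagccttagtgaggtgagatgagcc

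Mmp14 held 2 copies in this window, Il3, Ifitm3 and Dapl1 1 each, and the Ctnnd1 window shown, 1 of 2 in the table, none. The pentamer is common. It stood on either strand in 57.15% of 21141 promoter windows of 17452 tested genes. It stood in 63.82% of 152 windows of 111 higher genes and in 40.74% of 27 windows of 20 lower genes. A match is only a run of letters, and the absence of a match says nothing of binding outside the window.

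Cytokine genes were higher where they differed. Of 22 measured, 4 passed higher and none lower (Il3, Csf2, Ifng and Il2), where 0.63% of all genes passed higher, and the list median was 0.39 against -0.01 for all genes. In 9 of the 22 all Cre+ arrays lay above all Cre- arrays, as they did in 5.25% of all genes, and in none below (5.51%). Csf2, the gene of the myeloid growth factor GM-CSF, read 4.05, 3.92 and 4.24 in Cre- and 6.68, 5.96 and 7.79 in Cre+ cells. Its Cre+ arrays spread the most among the 4 cytokine genes that passed. Ifng, the macrophage-activating cytokine of Th1 cells, read 7.30, 6.71 and 7.41 against 8.86, 9.24 and 8.85 (SE 0.20, limma adjusted p = 0.00108). Its difference did not lean on the arrays numbered 3. Il2, the T cell growth factor, read 7.31, 7.91 and 8.57 against 9.72, 8.88 and 9.66. The highest Cre- array lay just below the lowest Cre+ array. The Il2 call was lost without any single baseline array, Cre- activated array 1 or 2, or Cre+ activated array 1 or 3, where the difference ran from 1.18 to 1.49.

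Cytokines that did not pass included Ebi3 (1.00, limma adjusted p = 0.0523) and Il12a (1.48), which both encode subunits of IL-12 family cytokines. Il21, a follicular helper cytokine, differed by 1.10 with Cre+ readings of 5.71, 3.93 and 6.47 that overlapped the Cre- ones. The Th2 cytokines Il4 and Il13 differed by 0.52 and 0.64 and Il5 by -0.10. Il17a (0.25), Il17f (0.12) and Il22 (-0.14) all read below the array median. Il10 read 3.80, 4.19 and 3.96 in Cre- and 3.46, 4.57 and 2.94 in Cre+ cells, which overlapped. Without both arrays numbered 3, 6 of the 22 passed, all higher.

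Among TNF superfamily ligands, 1 of 13 passed higher and none lower, at a list median of 0.23, and 3 passed higher without both arrays numbered 3. Tnfsf11 encodes RANKL, the ligand that drives osteoclast formation and dendritic cell survival. It read 6.51, 6.72 and 7.21 in Cre- and 8.72, 8.45 and 8.87 in Cre+ cells, a 3.64-fold difference. Tnfsf15 (TL1A), which was on no list and was named after its values were seen, differed by 1.03, a call lost in 19 settings, among them each baseline array, Cre- activated array 1 or 2 or Cre+ activated array 1 or 3 left out (0.80 to 1.03). Tnfsf4 (OX40 ligand, 1.62, limma adjusted p = 0.0671) and Fasl (1.22) did not pass, and Cd40lg differed by -0.12. All 13 chemokine genes had positive differences, with a median of 0.65. Only Ccl1, a ligand of CCR8, passed, at 6.20, 7.38 and 6.56 against 7.89, 9.26 and 8.83. That call was among the weakest: it was lost in 18 settings, among them each baseline array left out, Cre- activated array 1 or 3 left out and Cre+ activated array 2 or 3 left out (1.65 to 1.95), and it was 1.02 with a weight per array. Without both arrays numbered 3 no chemokine passed.

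Some growth factor genes were higher as well. Of 15 growth factor and matricellular genes, 3 passed higher (Ccn4, Pdgfb and Hbegf) and none lower, and the same number passed without both arrays numbered 3. Pdgfb, the B chain of platelet-derived growth factor, read 4.88, 4.83 and 6.06 in Cre- and 8.01, 7.34 and 8.47 in Cre+ cells. Hbegf, an EGF receptor ligand, read 4.45, 4.24 and 4.89 against 6.47, 5.74 and 7.04. The list median of 0.19 turned negative when genes with a mean under 5 or under 6 were left out. Rhbdf1, the inactive rhomboid that guides the shedding protease of such ligands to the surface, read 4.35, 4.43 and 4.52 against 6.88, 5.85 and 6.28. Igfbp7, a secreted binding protein, was 3.92-fold higher.

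Receptors and other surface proteins changed one by one rather than as families. Axl, a receptor tyrosine kinase of the TAM family that senses dying cells through bridging ligands, read 5.39, 5.70 and 6.49 in Cre- and 8.25, 8.02 and 8.44 in Cre+ cells (5.19-fold). Eng, the TGF-beta co-receptor endoglin, was the only one of 25 cytokine receptor genes to pass with all arrays (1.78). It read 4.08, 4.21 and 5.03 against 6.13, 6.13 and 6.41. Without both arrays numbered 3, 2 of the 25 passed higher. Klrb1f, a C-type lectin receptor of the NKR-P1 family, was the only one of 12 killer cell lectin-like genes to pass, at 3.70, 3.93 and 3.76 against 6.30, 7.35 and 5.69. Its Cre- readings were below the array median. Prnp, the prion protein gene, was 3.42-fold higher and Gfra2, a co-receptor for neurturin, 3.86-fold. The Cre- mean of Gfra2 (3.65) also lay below the array median. The Gfra2 call was lost without Cre- activated array 2 or Cre+ activated array 1, with a difference of 1.55 to 2.23 over single arrays left out.

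None of 14 TNF receptor genes, 19 costimulatory and inhibitory receptor genes or 17 chemokine and lipid mediator receptor genes passed with all arrays. Cd27, a costimulatory TNF receptor gene named after its value was seen, passed lower without both arrays numbered 3. Pdcd1, which encodes PD-1, differed by 0.60 and Tnfrsf8, which encodes CD30, by 0.69. Further surface genes that passed were named after their values were seen. Cd80, a ligand of CD28 and CTLA-4 better known on antigen-presenting cells, read 5.36, 5.65 and 5.71 against 6.76, 6.53 and 7.06. Sema7a, a membrane-anchored semaphorin, was 2.33-fold higher and Nrp1, a semaphorin receptor also found on regulatory T cells, 1.89-fold higher.

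Few of the adhesion genes listed passed. Of 20 integrin and adhesion genes 2 passed, Ctnnd1 and Itga5, and none was lower, at a list median of 0.18. Without both arrays numbered 3, 3 passed higher and 1 lower. Itga5, the alpha chain of a fibronectin receptor, read 5.72, 5.25 and 5.65 in Cre- and 6.81, 6.52 and 6.78 in Cre+ cells. Single genes on no such list, picked out after their values were seen, included Vcl, which encodes the adhesion protein vinculin. It read 5.02, 5.10 and 5.64 against 7.10, 6.85 and 6.92 (3.26-fold). Itga9, an integrin alpha chain, was 2.47-fold higher, and Lima1, which bundles actin, 2.28-fold, from a Cre- mean of 3.81 below the array median. Arhgef5, a guanine nucleotide exchange factor, was 2.77-fold higher. Cttn (cortactin), Myo10 (an unconventional myosin), Nckap1 (a WAVE complex subunit) and Dock1 (a Rac exchange factor) differed by 1.01 to 1.21, and the calls of these 4 were lost in 6 to 11 settings. Each of the 4 lost its call without Cre+ activated array 1 or 3. Cttn, Myo10 and Dock1 lost it also without Cre- activated array 2, Myo10 and Dock1 without Cre- activated array 1, and Dock1 without any Cre+ baseline array. Across the 4 genes the differences over single arrays left out lay between 0.83 and 1.34.

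Inhibitors that feed back on signalling leaned upward as a list. All 20 measured had positive differences, with a median of 0.33. It ran from 0.26 to 0.48 over the settings, though those that change only the spread or omit baseline arrays could not move it. In 6 of the 20 the Cre+ arrays all lay above the Cre- arrays (5.25% of all genes). Only 2 passed. Without both arrays numbered 3 the count was again 2, and Rgs16 was not among them. Ier3, an immediate early gene that modulates cell death, read 4.69, 4.27 and 4.64 in Cre- and 7.03, 6.28 and 7.0 in Cre+ cells (4.71-fold). Rgs16, which ends G protein signals, was 2.04-fold higher, at 8.30, 8.75 and 8.77 against 9.43, 9.76 and 9.72. The Rgs16 call was lost in 15 settings, among them each activated array except Cre- array 3 left out and 3 of the baseline arrays left out, at 0.88 to 1.13. The median of the list was 0.30 at baseline.

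Of 17 T cell receptor signalling genes only Rhoh passed, and it was lower. RhoH is an atypical GTPase of blood cells that brings ZAP-70 to the receptor. It read 7.54, 7.33 and 7.05 in Cre- and 6.56, 6.63 and 6.18 in Cre+ cells, a difference of -0.85 whose call was lost in 14 settings. Among these were each activated array left out except Cre- array 3 and Cre+ array 2, and Cre- baseline array 2 or any Cre+ baseline array left out, at -0.90 to -0.71. Other signalling genes that passed were named after their values were seen. Higher were Map3k8, the kinase that feeds the ERK pathway (1.92-fold), Ralgds, an exchange factor for Ral (2.28-fold), Dgkh, a diacylglycerol kinase (2.04-fold), and Nf1, the Ras inhibitor neurofibromin (1.99-fold). Ptprcap, which encodes a partner of the phosphatase CD45, was lower, at 8.99, 9.14 and 8.97 against 8.40, 8.45 and 8.29.

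Few of the transcription factor genes listed passed. None of the 5 Ikaros family genes, 13 T helper lineage factors or 19 listed AP-1, EGR, NR4A and NFAT genes passed, although Nr4a2 passed higher without both arrays numbered 3. Nfat5, a factor of the response to osmotic stress, and Tcf7l2, a relative of Lef1, were on no list and were named after their values were seen. They passed higher, by 0.69 and 1.09, and Cre+ activated array 1, 2 or 3 or Cre- activated array 3 left out ended both calls. So did Cre- baseline array 1 or 2 left out, and Cre- activated array 1 ended that of Nfat5, and Cre- activated array 2, Cre- baseline array 3 or Cre+ baseline array 2 that of Tcf7l2 (0.58 to 0.73 for Nfat5, 0.94 to 1.15 for Tcf7l2). Tbx21, the Th1 factor, read 8.18, 7.98 and 8.47 in Cre- and 8.22, 8.06 and 8.32 in Cre+ cells, which overlapped while Ifng did not. Gata3 and Foxp3 differed by -0.03 and 0.23. Eomes, a relative of Tbx21, read 9.38, 6.90 and 8.97 on the Cre+ arrays against 7.01, 6.79 and 7.01, so that Cre+ array 2 stayed among the Cre- readings (limma adjusted p = 0.316). Stat5a, a mediator of IL-2 signals, was the only one of 14 interferon regulatory and STAT genes to pass. It read 9.66, 9.57 and 9.65 against 10.41, 10.10 and 10.17, and the call was lost in 11 settings, among them Cre- array 1 or 2 and Cre+ array 1 or 3 left out (0.51 to 0.62). Bhlhe40, a repressor needed for cytokine production by T cells, was named after its values were seen, at 9.05, 9.14 and 9.10 against 9.87, 9.68 and 9.97.

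Mir155, the gene of a microRNA induced in activated lymphocytes, passed too and was named after its values were seen. Its probe set read 7.26, 7.15 and 6.87 in Cre- and 8.40, 8.09 and 8.43 in Cre+ cells, 2.32-fold higher in Cre+ (log2 SE 0.20, limma adjusted p = 0.015). That call was lost in 8 settings, among them Cre- array 2 or Cre+ array 1 or 3 left out (1.15 to 1.25). At baseline the means were 4.59 and 4.51. The array reads the gene, not the mature microRNA, so the level of the mature form was not measured. The mature 5p strand in RefSeq's table (GRCm38.p6, chr16:84714143-84714165, plus strand) is given with its seed, bases 2 to 8, in capitals, since the seed sets which messages it pairs with.
mmu-miR-155-5p: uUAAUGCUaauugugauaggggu

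Interferon-induced genes were higher in part. Of 25 interferon-stimulated genes 3 passed, all higher, and the median was 0.36 (4 passed without both arrays numbered 3). Ifih1, the sensor MDA5 of double-stranded RNA, read 6.54, 6.61 and 7.33 in Cre- and 8.26, 8.18 and 8.43 in Cre+ cells. Oas2, which makes the activator of RNase L, read 4.80, 4.49 and 5.16 against 6.96, 6.52 and 6.11. Oasl2 read 4.26, 4.06 and 5.67 against 6.51, 6.19 and 6.51, and its call was lost without any single baseline array or any single activated array except Cre- array 3 (1.44 to 1.85). Common members of the response did not pass: Isg15 differed by 0.68, Mx1 by 0.53, Ifit1 by 0.11, Irf7 by 0.18 and Ifit2 by -0.45.

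Ifitm3, an interferon-induced membrane protein that blocks virus entry, had the largest difference of all genes. It read 4.33, 4.46 and 5.58 in Cre- and 9.68, 8.35 and 9.27 in Cre+ cells, with array 3 high in the Cre- group. It was the only one of 7 Ifitm genes to pass with all arrays, although all 7 differences were positive. Without both arrays numbered 3, 2 of the 7 passed higher. The Ifitm3 difference was 4.31 with all arrays and 5.03 with a weight per array. Ifitm2 came next at 1.91, with Cre- readings of 3.24, 2.97 and 4.77 and Cre+ readings of 6.05, 4.71 and 5.95 that overlapped. Parp12, an antiviral ADP-ribosyltransferase gene named after its values were seen, was 2.88-fold higher.

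Transport and metabolism genes that passed did so singly. Stra6, the surface receptor that takes up retinol, read 4.01, 4.06 and 5.60 in Cre- and 9.48, 7.38 and 9.63 in Cre+ cells. Its difference was 4.28 with all arrays, 5.0 without Cre+ array 2, 5.19 with a weight per array and 3.68 without both arrays numbered 1. It was the only one of 16 retinoid genes to pass with all arrays, and 2 passed higher without both arrays numbered 3. Crabp2, which carries retinoic acid to the nucleus, differed by 1.88 (limma adjusted p = 0.0696). Slc43a1, a transporter of large neutral amino acids, was the only one of 13 amino acid transporter genes to pass, at 4.80, 5.03 and 6.38 against 8.41, 7.77 and 8.04. Its difference was 2.67 with all arrays and 3.26 with a weight per array. Slc15a3, an endolysosomal histidine and peptide transporter, was 5.08-fold higher, from a Cre- mean of 3.66 that lay below the array median. Tmem176b, an ion channel gene of immune cells, was 5.81-fold higher, at 4.01, 4.49 and 5.23 against 7.29, 6.76 and 7.29. Anxa1, the anti-inflammatory annexin, read 3.21, 3.01 and 3.05 against 5.10, 4.47 and 7.10. It was 2.47 with all arrays but 1.70 without Cre+ array 3, and its call was lost in 15 settings, among them any single array left out except Cre+ array 2 or 3. Elsewhere among the largest increases, Ccdc141, a coiled-coil gene, differed by 2.04, Pianp by 1.80 and Plaur, the urokinase receptor gene, by 1.79. The call of Ccdc141 was lost without Cre- activated array 1 or Cre+ activated array 1 or 3 (1.95 to 2.14). That of Plaur was lost without Cre- activated array 1 or 2, Cre+ activated array 1 or 3, or baseline array 1 or 2 of either genotype (1.46 to 1.85).

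The 23 decreases were smaller and less stable, and only 9 of them kept their call with a spread per state. Dapl1, a gene of naive T cells, read 7.51, 7.06 and 6.56 in Cre- and 5.32, 4.51 and 4.51 in Cre+ cells (a change of -2.27 with an SE of 0.27, limma adjusted p = 0.00218). It was the only one of 19 naive and quiescence genes to pass. Lef1, a factor of naive T cells, differed by -0.35, and Klf2 and S1pr1 by -0.28 and -0.57 with array 3 lowest in both groups. Atp1b1, a sodium pump subunit, read 7.73, 7.83 and 7.15 against 6.44, 6.65 and 6.61. Its call was lost without Cre- array 1 or 2 or Cre+ array 1 (-0.94 to -0.87). Zcwpw1, a histone reader gene, read 7.12, 7.0 and 7.60 against 6.33, 6.07 and 6.37, a call lost without Cre+ array 1 (-1.10 to -0.81 over single arrays left out). Rtn4rl1, a relative of the Nogo receptor, differed by -0.98, a call lost without Cre- array 1 or 2 (-0.94 to -0.91). Zfp273 (-1.01), Sema4f (-0.88), Pkd1l3 (-0.87), Bphl (-0.75), Cyp3a44 (-0.74), Fam102b (-0.69) and Iqgap2 (-0.69) were also lower. All 7 calls were lost without Cre- activated array 2, and all but those of Pkd1l3 and Bphl without Cre+ activated array 1 or 3. Cre- activated array 1 left out ended the calls of Sema4f, Cyp3a44, Fam102b and Iqgap2, as did 2 or more of the baseline arrays left out singly. Cre- activated array 3 ended that of Iqgap2 and Cre+ activated array 2 that of Sema4f. Over these losses the differences lay between -0.99 and -0.58.

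Dhcr7, which makes cholesterol in the last step of its synthesis, was the only one of 16 sterol synthesis genes to pass. It read 7.46, 7.46 and 7.80 in Cre- and 6.74, 6.57 and 7.01 in Cre+ cells, and its call was lost in 10 settings, among them any activated array left out except array 3 of either group (-0.86 to -0.70). Chst10, a carbohydrate sulfotransferase gene, and Padi2, which encodes an enzyme that citrullinates proteins, differed by -0.84 and -0.79, and each call was lost in 14 settings. Array 1 of either activated group left out ended both calls, Cre- array 3 or Cre+ array 2 that of Chst10, and Cre- array 2 or Cre+ array 3 that of Padi2. Nudt7 and Acot13, which act on coenzyme A and its esters, were named after their values were seen. They differed by -0.57 and -0.55 with SDs of at most 0.13 in any activated group. Both calls were lost without Cre- array 2 or Cre+ array 1, and that of Nudt7 also without Cre- array 1 or Cre+ array 2 (-0.56 to -0.52 over both genes).

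**Figure D4:**
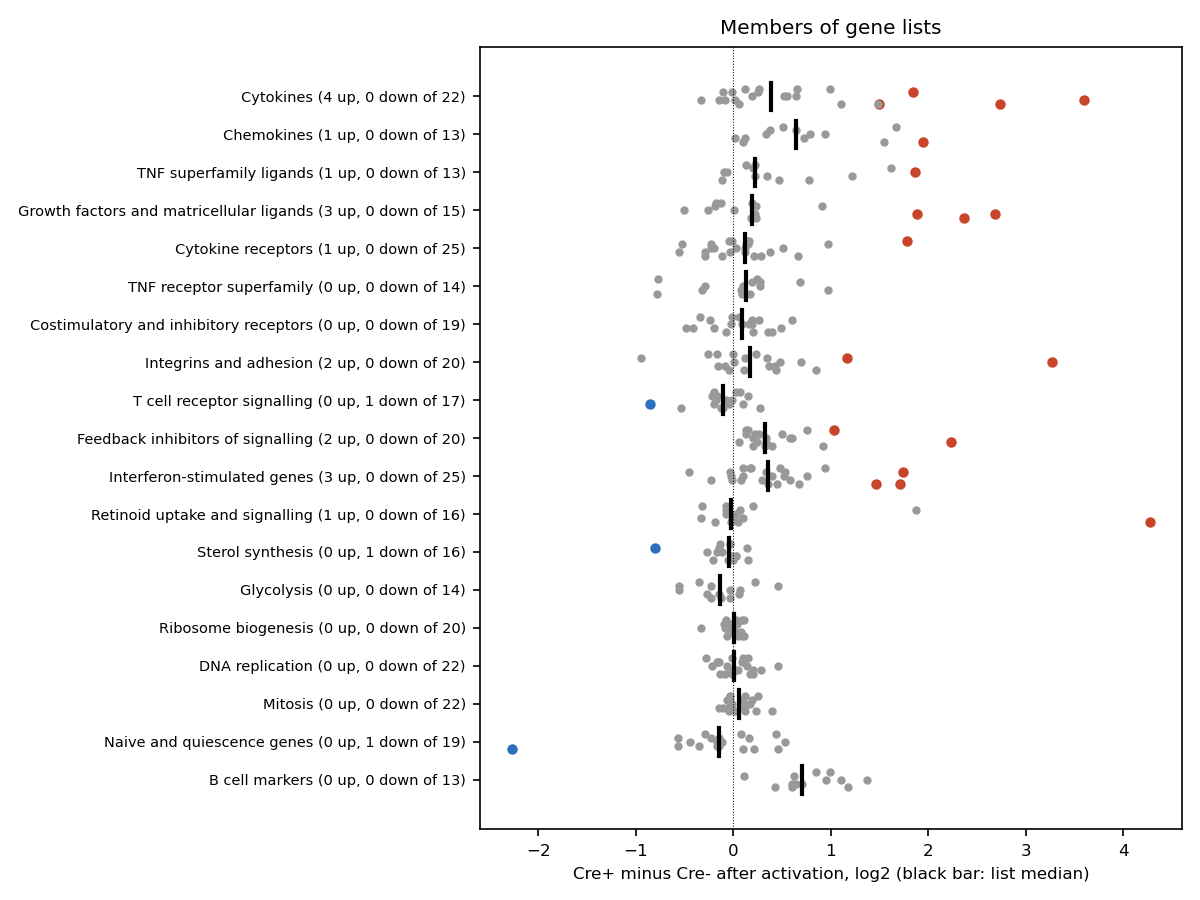
Log2 difference of Cre+ from Cre- after activation (horizontal axis) for each measured member of 19 gene lists, with members that passed higher in red, lower in blue and others in grey, and a black bar at the list median. Cytokines, chemokines, feedback inhibitors and B cell markers lie mostly to the right, ribosome biogenesis, DNA replication and mitosis genes sit around 0, and most lists hold at most 1 or 2 members past the test.

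Growth and division genes did not separate the genotypes. None of 22 DNA replication, 22 mitosis, 20 ribosome biogenesis or 14 glycolysis genes passed. The mitosis mean was 5.18, 5.17 and 7.86 on the Cre- arrays and 5.77, 5.17 and 7.47 on the Cre+ arrays, so that the arrays numbered 3 were far above the rest and Cre+ array 1 somewhat above. The mitosis median difference was 0.06 with all arrays. It ran from -0.61 to 0.93 over the settings, with 5 of 28 turning its sign, and was 0.28 without both arrays numbered 3. Settings that change only the spread or omit baseline arrays could not turn the sign. DNA replication behaved alike, with means of 6.92, 6.95 and 9.03 against 7.62, 6.76 and 8.61. A genotype difference in division could not be seen against arrays that differed so much within a genotype. Cdkn1a, the cell cycle inhibitor p21, differed by 1.22 (7.45, 8.08 and 8.56 against 9.37, 8.90 and 9.46, limma adjusted p = 0.0544), and none of 14 p53 target genes passed with all arrays (2 passed higher without both arrays numbered 3). Activation markers differed little between arrays, with a list mean of 8.98 to 9.18 and none of 19 past the test. Every Cre+ mean still lay above every Cre- mean, by a small margin (highest Cre- 9.096, lowest Cre+ 9.103).

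Markers of other cells moved with the comparison in the case of B cells. None of 13 measured B cell markers passed, but all 13 had positive differences, with a median of 0.70. It ran from 0.37 to 1.14 over the settings, though those that change only the spread or omit baseline arrays could not move it. Ms4a1, which encodes CD20, was the 1 of the 13 that passed higher without both arrays numbered 3. Their mean was 5.32, 5.77 and 6.63 on the Cre- arrays and 6.76, 5.96 and 7.34 on the Cre+ arrays, so that the groups overlapped and array 3 was highest in each. Cd79b read 5.73, 6.27 and 6.91 against 7.64, 6.69 and 7.89, and Pax5 4.07, 4.42 and 6.14 against 5.97, 4.48 and 7.15. At baseline the same list had a median of -0.18. The B cell mean of the Cre+ group was lowest on array 2. Among genes that passed, the 4 at least 8-fold higher (Ifitm3, Stra6, Il3 and Ctnnd1) all had their lowest Cre+ reading there. So did Pdgfb, Csf2, Axl and Ccn4, while Ifng, Ccl1, Klrb1f and Igfbp7 had their highest there. These are examples only: some array is lowest for every gene, and no count over all genes was made. The part of other cells in any result was not tested. Of 15 myeloid and dendritic cell markers none passed (median 0.08, means of 3.63 to 3.90 on all arrays), nor of 5 plasma cell, 6 NK and innate-like, 2 CD8 T cell or 9 erythroid and platelet markers. Defining myeloid markers such as Csf1r (3.94 to 4.29), S100a8 (1.79 to 2.18) and Itgax (3.36 to 3.81) read low on all activated arrays.

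Most genes that passed leaned the same way before activation, in arrays that share none with the activated comparison but share its estimate of spread. Of the 146 higher genes 130 were also higher in Cre+ cells at baseline (89%, against 50.5% of all genes), with a median baseline difference of 0.56. Of the 23 lower genes 19 were lower at baseline, with a median of -0.41. The difference was larger after activation than at baseline for 123 of the 146. These genes were chosen by their activated difference, which favours such a count. It therefore does not show that differences grew with activation. The genes fell along a range. Mmp14 differed by 1.87 at baseline and 1.96 after activation, Trim16 by 1.91 and 1.67 and Firre, a long noncoding RNA named after its values were seen, by 1.57 and 1.46. Slc43a1 and Eng differed more at baseline (3.25 and 2.28) than after activation (2.67 and 1.78).

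At the other end stood genes that did not differ at rest. The baseline means of Il3 were 2.73 and 2.76 in Cre- and Cre+ cells, those of Csf2 2.65 and 2.75, of Il2 2.70 and 2.83 and of Ifng 3.66 and 3.65. These baseline levels all lay below the array median, and whether they stood above background was not tested. Rhbdf1 also differed by 0.03 at baseline. A test of whether the genotype difference itself changed with activation passed for 2 genes (0.00863%): Il3, by 3.57 (SE 0.36), and Ccn4, by 1.91 (SE 0.18), each at a limma adjusted p of 0.00556. The means of Ccn4 were 4.00 (Cre-) and 4.46 (Cre+) at rest, and 4.49 and 6.86 after activation. At an unadjusted p under 0.05, 1089 genes (4.7%) differed in this test. Both calls were lost without both arrays numbered 1. Ifng (1.86, limma adjusted p = 0.088) and Rhbdf1 (1.88, 0.11) did not pass.

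**Figure D5:**
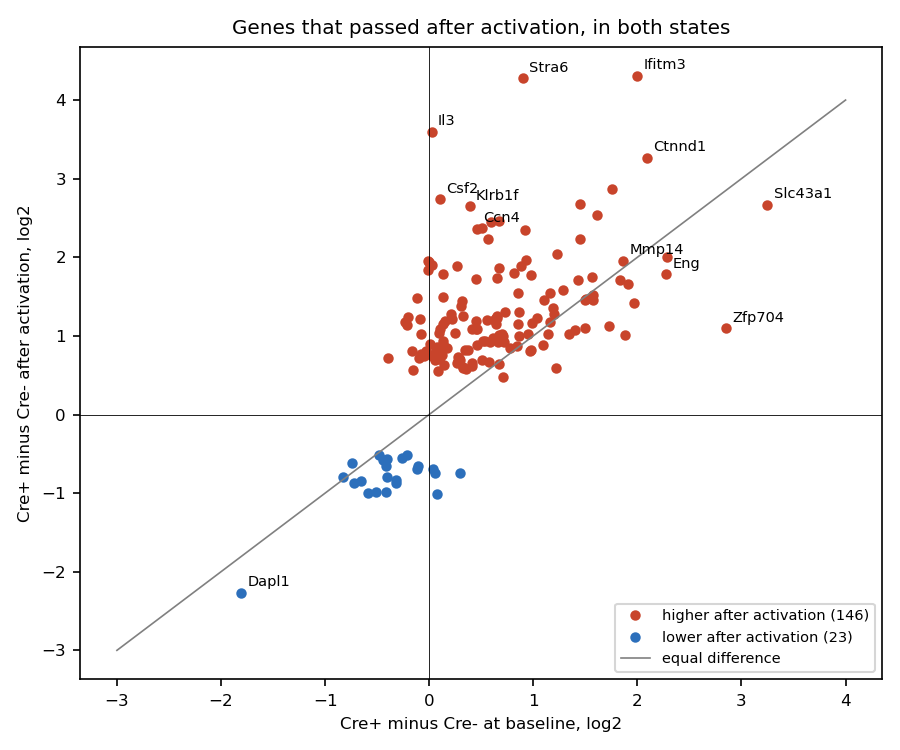
Log2 difference of Cre+ from Cre- after activation (vertical axis) against the same difference at baseline (horizontal axis) for the 169 genes that passed after activation, 146 higher in red and 23 lower in blue, with a line of equal difference. Il3 and Csf2 lie at 0 on the horizontal axis, Mmp14 lies near the line, and Slc43a1 and Zfp704 lie below it.

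Some genes that passed are neighbours on their chromosome, in the gene order of RefSeq's table and among tested genes. Csf2 and Il3 are next to each other, as are Tmem176b and Tmem176a (2.54 and 1.35), Mpzl2 and Mpzl3 (1.28 and 0.75), Nrn1 and F13a1 (1.45 and 1.15) and Fhl2 and Nck2 (0.72 and 0.56), all higher. A single tested gene lies between Tnfsf11 and Dgkh, between Ccn4 and St3gal1 and between Gm15987 and Klrb1f. The members of these pairs other than those described above were named after their values were seen, and the calls of Tmem176a, F13a1, Mpzl2, Fhl2 and Nck2 were lost in 8 to 20 settings, for all 5 among them Cre- array 1 or 2 or Cre+ array 1 left out. Whether neighbours share a cause was not tested.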

How the data were processed

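Per the submitters' processing notes and labels, the authors normalised the arrays with RMA (affy 1.36.1, R 2.15.1), and the deposited values are log2 expression, from 0.542 to 13.2 here. The sources used here give neither the chip definition file nor the genome build. RMA normalises across arrays, which assumes that most genes do not change, and the number of arrays limits the precision. Of 25206 probe sets, 23185 paired with 1 gene and were tested, without a filter on low values. A limma model (version 3.58.1, in R 4.3.3) of 4 group means took in all 12 arrays, with 8 residual degrees of freedom. Calls needed an adjusted p (Benjamini-Hochberg, two-sided) under 0.05 over the whole table, with no fold minimum. SE values are moderated, and SD values are over 3 arrays. The model was run on simulated data with independent noise for each gene and array. Those data held no shift shared by many genes like that of the arrays numbered 3, so they do not check these calls.

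The members, the 41 gene lists (575 of 612 genes measured, the others not analysed here) and the tests were chosen with earlier results of these data known. Genes named were drawn from Ikzf1, the top 30 increases and top 15 decreases with groups that did not overlap, genes that passed from the 6 activated arrays alone or with a replicate block or in the second test, up to 4 passing members of each list or its 2 with the smallest p, the 6 genes each way most different on array 3, and any marker, cytokine, lineage factor or Ikaros family gene. Predicted genes, small RNAs and receptor segments were left out of the ranks. Alternatives covered array weights, variance trend, mean filters, scaling, sex, a replicate block, other sets of arrays and each array left out.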

Additional observations from a re-analysis of the deposited data

Results flagged for a closer look

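The genotype difference of Il3 and of Ccn4 changed with activation by a test of that change itself, by 3.57 and 1.91 on the log2 scale (limma adjusted p = 0.00556 for each). All 3 activated Cre+ arrays lay above all 3 activated Cre- arrays for both genes, and without both arrays numbered 1 neither passed.

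Among the 2021 probe sets with no gene listed, which no comparison above uses, 10 passed the same limma test between activated Cre+ and Cre- arrays when all 25206 probe sets were fitted together, 9 higher and 1 lower. The largest differences were 2.67 and -0.70. Groups of 3 arrays were too small to test for single outlying arrays.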

How the results depend on the processing

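Of the fits tried, the count of 169 genes was 9 from the 6 activated arrays alone, 99 with a spread per state, 2416 (1204 higher, 1212 lower, 49.8% against 86.4% higher) with a weight per array, 79 at a mean of at least 6, 95 with a 2-fold minimum, 112 with sex as a covariate, and 72 to 283 with single arrays left out. Added after seeing the data were fits without both activated arrays numbered 1 (28) or 2 (108). The count for the second test, 2 with all arrays, was 6 with a spread per state, 143 with a weight per array, 0 at a mean of at least 5 or 6 (where neither Il3 nor Ccn4 was tested), 4 with sex as a covariate, 11, 0 and 12 without both activated arrays numbered 3, 1 and 2, and 2 to 25 with single arrays left out. The cause was not tested. All 169 genes kept their direction in every fit that tested them. For fits that only left out or weighted arrays this was fixed in advance, since the groups of each gene did not overlap.

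Replicate numbers were shared between genotypes. Deviations of same-numbered activated arrays from their group means correlated across genes at -0.05, 0.57 and 0.73 for numbers 1, 2 and 3. At baseline these values were -0.03, 0.14 and 0.15. By Xist and the Y-linked genes, Cre- number 3 was male at baseline and female after activation, and Cre+ number 1 the reverse. A number thus did not always mark the same mouse in both states. The main test did not take the numbers as pairs, and why activated numbers 2 and 3 correlated was not tested. With a replicate block over all 12 arrays 189 genes passed, 150 of them among the 169, and 5 in the second test. Over the 6 activated arrays alone with the block 68 passed, 63 of them among the 169, against 9 without the block.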
